A study of Mus musculus with 8 samples.

Results

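Open chromatin was described around 9 genes of the interferon response (Irf1, Irf7, Irf9, Stat2, Isg15, Ifit1, Ifit3, Ifih1 and Oasl2), chosen by name, of 21887 protein-coding genes in the mouse gene table. All 9 were found. For each, the accessible regions (peaks) were counted from 25 kb before the gene to 25 kb after it, in a list from cells given an empty vector and in a list from cells given a Klf4 expression plasmid. The cells were MIN6, an established mouse insulinoma line that serves as a beta cell model, of the genotype the labels call WT. ATAC-seq, in which a transposase cuts and tags DNA in open chromatin, was done after 48 hours of lipid-mediated transfection with pcDNA 3 Empty Vector or with pGloMyc-Klf4, in 4 libraries each. The labels name an ATAC-seq kit for the reaction and, beside it, a kit sold for mRNA-seq for library preparation, with genomic DNA as the molecule, and how the latter was used is not given in the sources used here. Both groups therefore received a plasmid and a lipid reagent. No untransfected cells are among the samples, so the response to transfection itself was not measured, and the plasmids have different names, so Klf4 and any other difference between them cannot be told apart. Each plasmid has 1 merged peak list, so each value below is 1 value per group, with no spread between libraries and no test between groups. Read depth is unknown from these lists. Klf4 belongs to the Krüppel-like factors, whose zinc fingers recognise GC-rich sites of the CACCC type.

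Type I interferons are secreted when a cell senses foreign nucleic acid in its cytoplasm, transfected DNA included. They bind a receptor whose kinases phosphorylate STAT2, which joins IRF9 and enters the nucleus as part of a complex. That complex binds the interferon-stimulated response element (ISRE) in front of its target genes. Interferon gamma acts on its target genes through another element, the gamma-activated site (GAS). In beta cells this pathway is known from viral infection and from autoimmune diabetes. Accessibility at a gene is not a measure of its transcript.

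The DNA in front of the starts is shown first, because elements of the kinds named above are known from the promoters of interferon target genes. Promoters of 300 bases, 250 before the start and 50 after it, were taken from RefSeq for build GRCm38.p6, and all 9 members matched by gene identifier. The motifs searched, each on both strands, were the ISRE core GAAANNGAA (TTCNNTTTC on the other strand), the GAS TTCNNNGAA and a Klf4-type site GGGNGTGG (CCACNCCC on the other strand). The ISRE core was found at Isg15, Ifit1 and Ifit3, with 3 matches each, at Ifih1 with 2 and at Stat2 with 1. Of all 21263 promoters of protein-coding genes, 8.15% held it and 0.640% held 2 or more. These members are known interferon targets, so the count describes the choice of genes. No match lay in the promoters of Irf1, Irf7, Irf9 and Oasl2. Below, capitals mark ISRE core matches, some of which overlap, and each line runs 5′ to 3′ on the strand of the gene. The stretches are chr4:156200866-156200906 (minus strand) for Isg15, chr19:34640773-34640801 (plus strand) for Ifit1, chr19:34583407-34583436 (plus strand) for Ifit3, chr2:62646349-62646377 (minus strand) for Ifih1 and chr10:128270267-128270295 (plus strand) for Stat2.

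Isg15: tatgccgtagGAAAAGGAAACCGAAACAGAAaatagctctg
Ifit1: tgcaggcTTCAGTTTCACTTTCcagtctc
Ifit3: tTTCAGTTTCtactttcctcTTCCCTTTCa
Ifih1: agaattcgcgTTCCCTTTCctgtttctca
Stat2: gcaccctggtTTCAGTTTCctttccctag

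In Isg15 the 3 matches overlap in 1 run between 78 and 58 bases before the start. In Ifit1 and Ifit3 the lines show 2 of the 3 matches, and in Ifih1 the second match lies after the start. Every match at Stat2, Ifit1, Ifit3 and Ifih1 lay under a peak in both lists. None of the 3 at Isg15 lay under a peak in either list. The GAS was found at Irf1 alone, and 7.69% of all promoters held it. The Klf4-type site was found 3 times at Irf1, 2 times at Irf7 and once each at Stat2 and Ifit3, and 19.4% of all promoters held it. Every one of these matches lay under a peak in both lists. The Irf1 stretch (chr11:53769790-53769997, plus strand) has the GAS in capitals as the third marked run, starting 90 bases before the start, and the Klf4-type matches as the others, starting 214, 153 and 34 bases before it.

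Irf1: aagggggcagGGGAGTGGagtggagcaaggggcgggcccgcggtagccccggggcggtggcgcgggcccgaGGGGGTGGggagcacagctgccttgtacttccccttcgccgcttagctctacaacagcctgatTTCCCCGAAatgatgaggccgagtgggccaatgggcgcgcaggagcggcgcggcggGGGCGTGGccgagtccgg

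With either plasmid, 8 of the 9 genes had a peak over a listed start. Over the 17492 protein-coding genes with a listed start, 59.4% had such a peak in the empty vector list, 65.2% in the Klf4 list, 58.7% in both and 34.1% in neither. Isg15 was the exception and had none in either list. Over the whole windows, the empty vector list had 62 peaks and the Klf4 list 68, and they covered 44469 and 49555 bp of 572.4 kb. The higher number with Klf4 was not kept in stricter settings, with 45 peaks in each list at a −log10 q of 5 or more, 23 and 21 at 20 or more, and 43 and 39 of at least 500 bp. No window shared a peak with another. The number of peaks per gene ran from 3 to 9 with the empty vector and from 6 to 10 with Klf4.

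**Figure D1:**
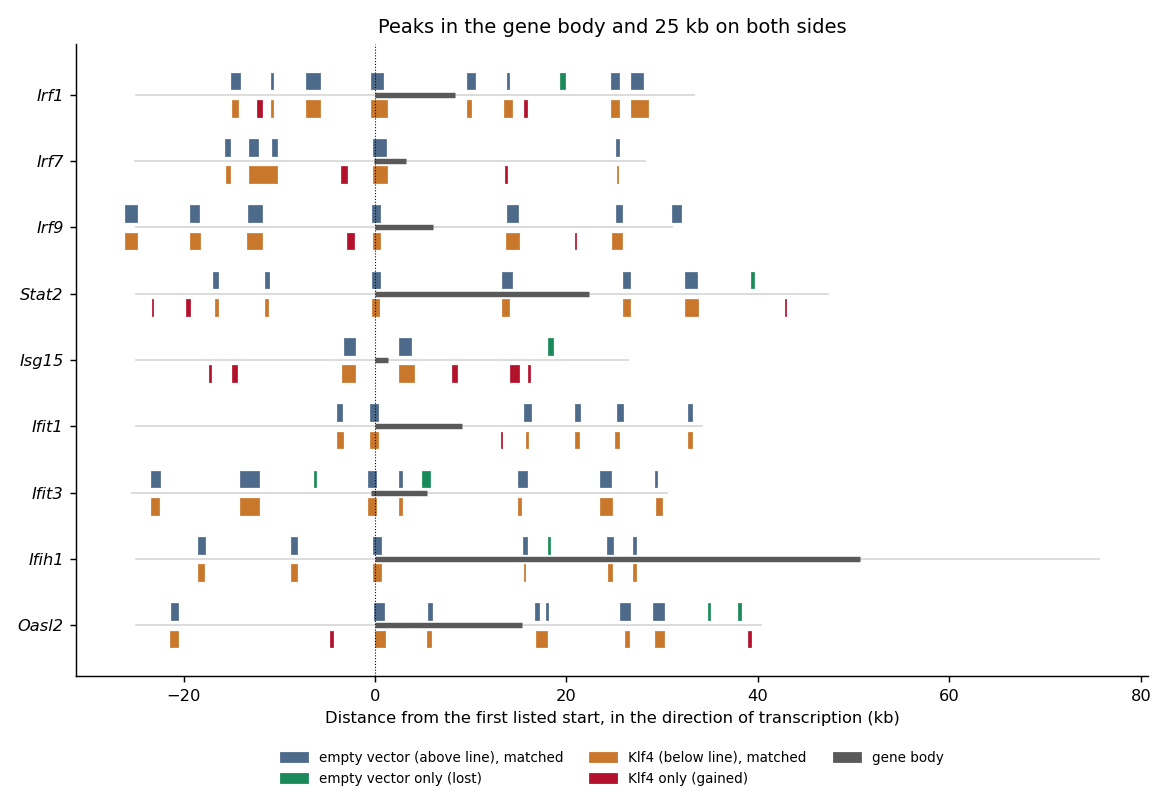
Peaks of both lists around the 9 genes, by distance in kb from the first listed start in the direction of transcription. Boxes above each line are empty vector peaks and boxes below are Klf4 peaks, coloured by whether a peak of the other list overlaps them, and dark bars are gene bodies. Of the genes, Isg15 alone has no box over its start, and it has 5 Klf4-only boxes.

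A peak was called matched when a peak of the other list overlapped it by at least 1 bp, gained when it was in the Klf4 list only and lost when it was in the empty vector list only. In the windows, 54 of 62 peaks of the empty vector list were matched (87.1%, 95% Wilson interval 76.6 to 93.3%). In the Klf4 list 51 of 68 were (75.0%, with an interval from 63.6 to 83.8%). Around all protein-coding genes, counted the same way, the matched share was 82.4% with the empty vector and 63.4% with Klf4. The first background share lies inside the members' interval and the second just under it. Both intervals reflect counting error alone, and peaks near each other need not vary independently. The members thus had 17 gained and 8 lost peaks, a mean of 1.89 and 0.889 per gene, against 2.85 and 0.928 over all genes. The median number of gained peaks per gene was 2 for the members and 2 over all genes. At least 1 gained peak was found at 7 of 9 members and at 72.3% of all genes. At least 1 lost peak was found at 6 of 9 members and at 49.7% of all genes. More lost than gained peaks were found at 2 of 9, Ifit3 and Ifih1, and at 11.6% of all genes. With 9 genes, none of these counts lies more than 2 genes from the background.

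The unmatched peaks were narrow and weak beside the matched ones. Gained peaks had a median width of 325 bp and a median −log10 q of 3.82, and lost peaks 258.5 bp and 1.77. The medians of matched peaks were 793 bp and a −log10 q of 12.2 in the Klf4 list, and 821 bp and 13.7 in the empty vector list. Peaks near all protein-coding genes showed the same pattern, with medians of 363 bp and 4.83 for gained, 281 bp and 2.63 for lost, 669 bp and 11.9 for matched Klf4 and 643 bp and 13.2 for matched empty vector peaks. The −log10 q, a measure of the significance of a peak over its background, is the authors' value, and it ranks peaks within a list here. Words such as weak and strongest refer to it, not to the fold enrichment, which gives the height over local background. No gained peak lay in the body of a member, and 2 lost peaks did, at Ifit3 and Ifih1. A −log10 q of 5 or more was found at 6 of the 17 gained peaks, 3 of them at Isg15, 2 at Stat2 and 1 at Irf7, where 48.5% of the gained peaks near any protein-coding gene reached it. None of the 8 lost peaks did, where 18.5% of those near any gene did.

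The lengths covered by peaks were set against each other as a log2 ratio, Klf4 over empty vector, after 500 bp had been added to each. It was higher with Klf4 at 6 members and lower at 3, where 67.8% of all genes were higher and 20.2% lower. The median over the members was 0.05, against 0.21 over all genes. This order turned in windows of 10 kb (0.30 against 0.13) and without peaks under a −log10 q of 20 (0.035 against 0). No member differed by 2-fold or more, a size that 7.98% of all genes reached in the higher direction and 0.251% in the lower. These background shares moved with the settings, to 2.91% and 2.13% without peaks under a −log10 q of 20, and the lower one to 1.28% when peaks narrower than 500 bp were left out and 1.29% with 100 bp added. A covered length says how much was called as peak, not how high the signal was.

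**Figure D2:**
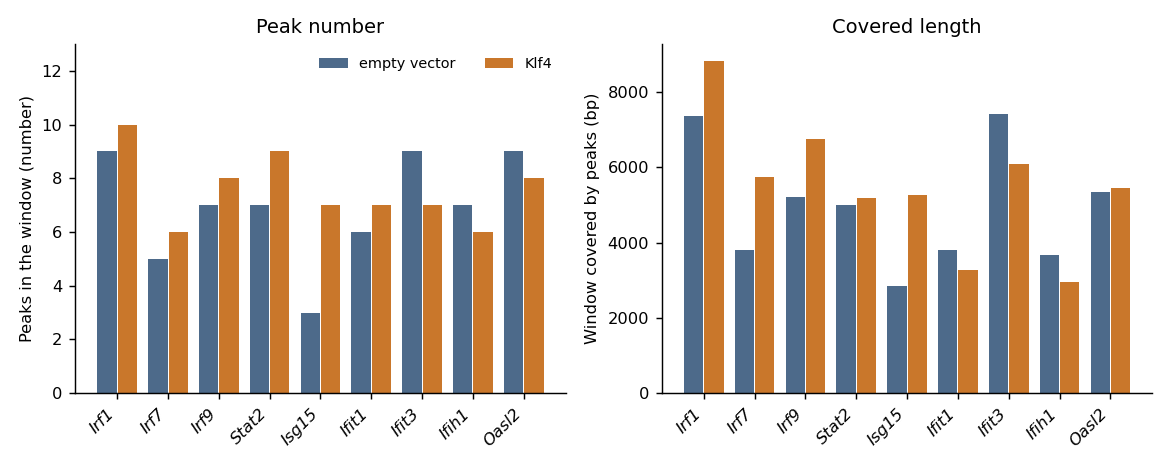
Number of peaks (left) and bp of the window covered by peaks (right) for each gene, with 1 bar per list and no error bars, since each list is a single merged value. Isg15 has 3 peaks with the empty vector and 7 with Klf4, and Ifit3 has 9 and 7.

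**Figure D3:**
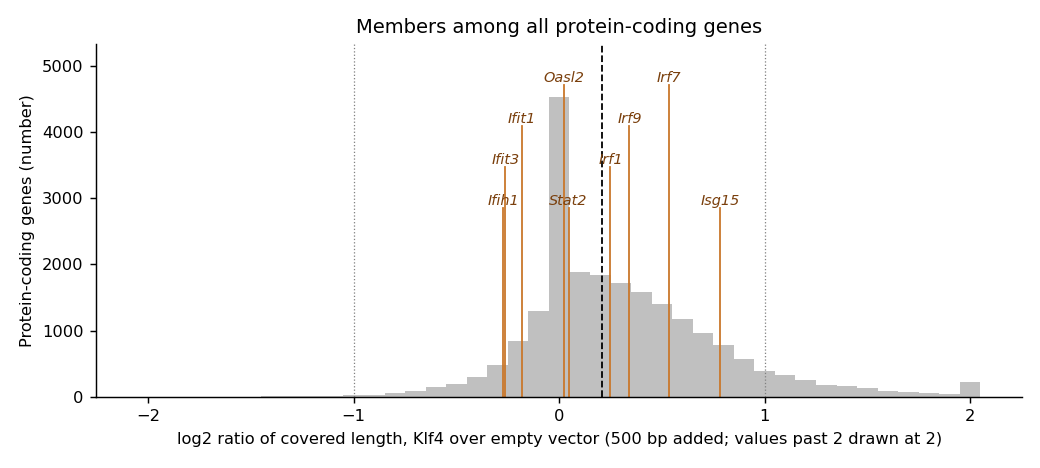
Number of protein-coding genes by log2 ratio of covered length, with the members as orange lines, the median of all genes as a dashed line at 0.21 and 2-fold as dotted lines. The members run from −0.27 at Ifih1 to 0.78 at Isg15, all inside the dotted lines.

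Irf1, a transcription factor induced by interferon gamma and the first of its family to be described, lies at chr11:53770014-53778374 on the plus strand. It has no other protein-coding gene in its window. The empty vector list had 9 peaks covering 7357 bp and the Klf4 list 10 peaks covering 8841 bp (log2 ratio 0.25). The start peak was the strongest in both lists, 53769607 to 53770856 with the empty vector (−log10 q 161.8, rank 2353 of 100099) and 53769634 to 53771259 with Klf4 (−log10 q 111.2, rank 3390 of 128538). The part shared between the lists was 1223 bp, and it holds the GAS and the 3 Klf4-type matches shown above. Upstream, a peak that ended 5742 bp before the start (53762827 to 53764272, rank 9139) had a counterpart with Klf4 (53762777 to 53764260, rank 5075). The 2 gained peaks and the 1 lost peak were weak, with a −log10 q of 1.29, 1.61 and 2.66. With peaks under a −log10 q of 20 left out, the ratio turned to −0.14.

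Irf7, the factor that drives the later wave of type I interferon genes, lies at chr7:141263183-141266499 on the minus strand. Its window also holds Phrf1, Cdhr5 and the secretin gene Sct. The lists had 5 peaks covering 3811 bp with the empty vector and 6 covering 5735 bp with Klf4 (log2 ratio 0.53). The start peak was nearly the same in extent, 1447 and 1459 bp wide with 1437 bp shared, and it was the strongest of the window in both lists (−log10 q 60.3 and 56.2, ranks 11430 and 10161). Much of the added length lay at Sct and Cdhr5, where 2 empty vector peaks of 588 and 946 bp stood in the place of 1 Klf4 peak of 2895 bp. A gained peak at 141269360 to 141269977, 2936 bp before the Irf7 start and inside Cdhr5, had a −log10 q of 6.52. The other gained peak, inside Phrf1, had 2.49.

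Irf9, the DNA-binding part of the complex with STAT2, lies at chr14:55603985-55610030 on the plus strand among 6 other protein-coding genes (Psme1, Emc9, Psme2, Rnf31, Rec8 and Ipo4). The empty vector list had 7 peaks covering 5221 bp, all matched, and the Klf4 list 8 covering 6751 bp (log2 ratio 0.34). The ratio was 0.027 in windows of 50 kb and 0.035 without peaks under a −log10 q of 20. The Irf9 start peak was 845 bp wide with the empty vector (−log10 q 85.2) and 775 bp with Klf4 (70.2), with 734 bp shared. A stronger pair lay over the starts of Psme2, a proteasome activator subunit, and Rnf31, a ubiquitin ligase subunit, with a −log10 q of 224.2 and 177.9. The 2 gained peaks, inside Rnf31 and Rec8, had 3.77 and 4.27. Of the 7 empty vector peaks, 6 lay over the start of a gene in the window. One of these, at the start of Ipo4, touches the edge of the window, and its Klf4 counterpart begins beyond it.

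Stat2, the STAT that is specific to type I and type III interferon signalling, lies at chr10:128270498-128292853 on the plus strand. It had the strongest start peak of the members, 128270215 to 128270970 with the empty vector (−log10 q 247.5, rank 664) and 128270160 to 128270937 with Klf4 (−log10 q 215.3, rank 461). Their shared 723 bp hold the ISRE core match. The lists had 7 peaks covering 5002 bp and 9 covering 5180 bp (log2 ratio 0.05). Gained peaks at 128247155 to 128247337 and 128250711 to 128251186, both inside Timeless, had a −log10 q of 8.29 and 5.55. The third, inside Pan2, had 3.62, and a lost peak inside Pan2 had 3.24. The sign of the ratio did not hold: it was −0.017 without peaks under a −log10 q of 5, −0.11 in windows of 10 kb and −0.20 for peaks of at least 500 bp.

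Isg15, a ubiquitin-like protein that is joined to other proteins after interferon, lies at chr4:156199424-156200818 on the minus strand. Its ratio was the farthest from 0 among the members, though not in every setting: Ifit3 was farther at 10 kb (−0.73 against 0.43), Ifit1 for peaks of at least 500 bp (−0.96 against 0.73) and Irf7 at a threshold of 20 (0.48 against 0.43). The empty vector list had 3 peaks covering 2846 bp and the Klf4 list 7 covering 5259 bp (log2 ratio 0.78, higher than at 86.4% of all genes). The matched pairs stood on both sides of the gene and left its body and start uncovered. The upstream pair ended 2072 bp before the start with the empty vector and 2077 bp before it with Klf4, inside Perm1. The downstream pair, 156197044 to 156198279 with the empty vector and 156196707 to 156198267 with Klf4, lay over a start of Agrn (agrin) and was the strongest in both lists (−log10 q 58.5 and 42.9). A region under the authors' threshold is not in the lists, so the start may be open at a level that was not called.

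Isg15 had 5 gained peaks, and 22.3% of all genes had 5 or more. The 3 that reached a −log10 q of 5 all lay inside Agrn, 7995 to 16192 bp past the Isg15 start. They were 156192283 to 156192823 (−log10 q 25.9), 156185779 to 156186690 (16.7, over another start of Agrn) and 156184626 to 156184851 (6.29). The remaining 2 lay inside Perm1 with 1.36 and 3.64. The lost peak, 156182273 to 156182704, also lay inside Agrn (4.97). In windows of 50 kb the log2 ratio was 1.15, past 2-fold, and with 10 kb it was 0.43.

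Ifit1 and Ifit3 encode proteins with tetratricopeptide repeats that bind viral RNA. They lie in 1 gene cluster on chromosome 19, Ifit3 at chr19:34583119-34588982 and Ifit1 at chr19:34640889-34650009, both on the plus strand. The genes of the cluster are similar copies (Ifit2, Ifit3b and Ifit1bl1 are others), so reads may be placed on the wrong one. Covered length was lower with Klf4 at both. At Ifit1 it went from 3795 to 3283 bp (log2 ratio −0.18, with 6 and 7 peaks), and at Ifit3 from 7409 to 6095 bp (−0.26, with 9 and 7 peaks). The ratio at Ifit1 was −0.96 for peaks of at least 500 bp, and at Ifit3 it turned to 0.054 without peaks under a −log10 q of 5.

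The start peaks of both were close in extent. At Ifit1 the peak was 34640333 to 34641222 with the empty vector (−log10 q 14.7) and 34640359 to 34641222 with Klf4 (12.8). In both lists it also lay over a start of the neighbouring gene Ifit1bl2. At Ifit3 the peak was 34582800 to 34583674 with the empty vector (9.39) and 34582805 to 34583662 with Klf4 (8.51). All 6 empty vector peaks of Ifit1 were matched, and its 1 gained peak had a −log10 q of 2.08. The strongest Ifit1 peak with Klf4 (34636924 to 34637510) ended 3379 bp before the start (15.3) and had a counterpart with the empty vector (34636875 to 34637400). Ifit3 had no gained peak. Its 2 lost peaks had a −log10 q of 1.66 and 1.88, and the second, 847 bp wide, lay over the end of the gene. The strongest pair of the Ifit3 window lay over the start of Ifit3b (47.2 and 36.8).

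Ifih1, which encodes the cytoplasmic sensor of long double-stranded RNA MDA5 and is a known locus of type 1 diabetes risk, lies at chr2:62595618-62646255 on the minus strand. Its window also touches Fap and Gca. The lists had 7 peaks covering 3682 bp with the empty vector and 6 covering 2965 bp with Klf4 (log2 ratio −0.27). The start peak was 62645666 to 62646473 (−log10 q 31.9) and 62645595 to 62646501 (36.3), and the Klf4 peak held the whole of the empty vector peak. Of all genes, 5.57% had a lower ratio than Ifih1. Inside the gene body, peaks of 636 and 360 bp with the empty vector stood against peaks of 402 and 168 bp with Klf4, another pair was nearly equal (282 and 286 bp), and 1 peak was lost (−log10 q 1.18). The strongest pair lay over the start of Gca, a calcium-binding protein gene (143.6 and 143.7). Ifih1 had no gained peak.

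Oasl2, a protein of the oligoadenylate synthetase family, lies at chr5:114896926-114912245 on the plus strand, next to its paralog Oasl1. Covered length was close in the lists, 5346 bp in 9 peaks with the empty vector and 5446 bp in 8 peaks with Klf4 (log2 ratio 0.02). The start peak was 114896782 to 114897896 (−log10 q 18.4) and 114896908 to 114897952 (12.2), with 989 bp shared. The strongest pair lay inside Oasl1 (24.5 and 32.6). The 2 gained peaks had a −log10 q of 3.82 and 3.94, and the 2 lost peaks, both inside Oasl1, 1.39 and 1.66. Without peaks under a −log10 q of 5 the ratio turned to −0.22, while it was 0.39 in windows of 10 kb and 0.45 in windows of 50 kb.

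Among the members, start peaks differed in −log10 q between roles in both lists. The signalling and transcription factor genes Irf1, Irf7, Irf9 and Stat2 had a −log10 q from 60.3 to 247.5 with the empty vector and from 56.2 to 215.3 with Klf4. The sensor and effector genes Ifit1, Ifit3, Ifih1 and Oasl2 had 9.39 to 31.9 and 8.51 to 36.3. These 2 sets of 4 did not overlap in −log10 q in either list. The genes were sorted into roles with the values known, though, and no test was made. In fold enrichment the sets overlapped in both lists, with 5.58 to 9.73 against 4.35 to 7.10 with the empty vector. With Klf4 the fold ranges were 5.36 to 10.1 and 4.41 to 7.66. Among the other interferon genes, of which lists by role are described further on, the −log10 q ranges of these roles overlapped. In the empty vector list, other effector genes with a start peak ran from 2.97 to 126.8 (25 of the 30 with a listed start), with Ifit2 the highest. Other transcription factor genes ran from 36.9 at Irf2 to 261.3 at Stat3, and 3 of 6 had no start peak there. The medians were 79.4 for these transcription factor genes and 43.3 for these effector genes with the empty vector. With Klf4 they were 24.8 and 39.6, where all 6 and 26 of 30 had a start peak. Other nucleic acid sensing genes, 11 with a listed start, had medians of 63.4 with the empty vector and 66.5 with Klf4. A start peak was found at 8 and 7 of these. In rank, the 4 signalling and transcription factor members stood in the strongest 11.4% of the empty vector list and 7.91% of the Klf4 list. The sensor and effector members ranged from 20.1% to 48.2% and from 12.5% to 46.0%. Over all genes with a start peak the median −log10 q was 81.4 and 61.7, with quartiles of 40.2 and 135.2 with the empty vector and 28.5 and 105.0 with Klf4. The sensor and effector members lay under the lower quartile in both lists, with the exception of Ifih1 with Klf4.

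**Figure D4:**
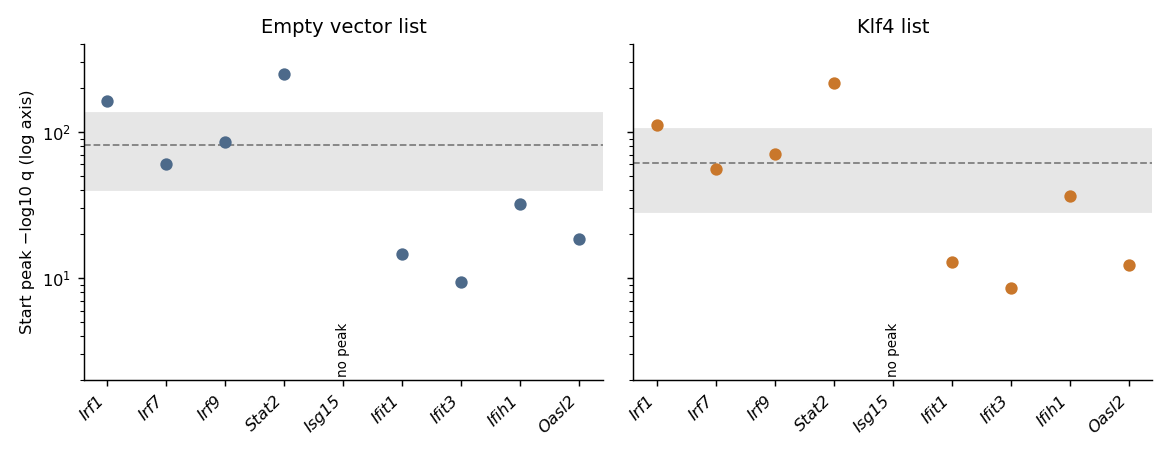
The −log10 q (log axis) of the strongest peak over a listed start of each gene, in the empty vector list (left) and the Klf4 list (right). The grey band and dashed line are the quartiles and the median over all protein-coding genes with a start peak. Irf1, Irf7, Irf9 and Stat2 lie within or above the band and Ifit1, Ifit3 and Oasl2 below it, and Isg15 has no start peak.

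The GC content of the promoter also differed between these sets, here with Isg15 among the sensor and effector genes. The promoter at the first start had a GC content of 69.3% at Irf1, 59.3% at Stat2, 55.3% at Irf9 and 55.0% at Irf7. It was 50.7% at Ifit1, 50.3% at Ifit3, 49.0% at Ifih1, 46.3% at Isg15 and 38.7% at Oasl2. The median over all promoters was 56.3%, with quartiles of 48.3 and 64.7%, and only Irf1, Isg15 and Oasl2 lay outside these quartiles. CpG dinucleotides numbered 32 at Irf1, 22 at Stat2 and 14 at Ifih1. They numbered 9 or fewer at the first start of each of the other members, against a median of 13. CpG number thus did not separate the sets, since Irf7 and Irf9 had fewer than Ifih1. The part of base composition in the strength of the peaks was not tested.

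Peaks in these windows also lay at the starts of neighbouring genes. Of the 62 empty vector peaks 20 lay over a listed start of some protein-coding gene, 8 of them over a member's own start and 12 over a neighbour's alone. Of the 68 Klf4 peaks 19 did, 8 and 11 of them. All 20 of the former and 18 of the latter were matched. The exception was the gained peak over a start of Agrn.

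The other interferon genes were taken as 6 lists by role, 82 genes in all, with 3 more names (Mx1, Mx2 and Oas1b) that the protein-coding table does not hold. Covered length was higher with Klf4 at 61, lower at 19 and equal at 2, with a median log2 ratio of 0.20. At least 1 gained peak was found at 60 of them (73.2%) and at least 1 lost peak at 44 (53.7%). At least 2-fold higher were 3 (3.66%), and none was 2-fold lower. These shares lie near or under those of all genes given above. A peak over a start in both lists was found at 47, where 66 had a listed start (71.2%, against 58.7% of all genes).

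By role, the counts were these, with no test between lists. The 7 ligand genes, among them Ifnb1 and Ifng, had no start peak in either list, and their median ratio was 0. Ifng had no peak in its window. The 9 receptor and kinase genes all had higher covered length with Klf4 (median 0.32), and each had a gained and a lost peak, where the shares over all genes were 67.8%, 72.3% and 49.7%. They are not independent, since 4 of them (Ifnar1, Ifnar2, Il10rb and Ifngr2) lie in 1 cluster on chromosome 16, where the window of Ifnar2 overlaps that of Il10rb and the window of Ifnar1 that of Ifngr2. Start peaks in both lists were found at 8 of them, all that have a listed start, such as Ifnar1 and Ifnar2, the chains of the type I receptor. Of the 8 other transcription factor genes 7 were higher (median 0.51), of the 16 nucleic acid sensing genes 13 (median 0.21), of the 36 effector genes 24 (median 0.11) and of the 6 negative regulators 5 (median 0.49). In all, 26 of the 82 genes had a window that overlapped that of another listed gene, 19 of them effectors, such as those of the Ifit and Oas clusters. Ifit2 (−0.28), Ifit3b (−0.28) and Ifit1bl1 (−0.23) were lower with Klf4 as Ifit1 and Ifit3 were, and their windows overlap those of the members.

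The 3 genes at 2-fold or more were Irf8, Ifitm3 and Ikbke. Irf8, a factor best known from myeloid and B cells, went from 3 peaks covering 1639 bp to 10 covering 5394 bp (log2 ratio 1.46), with 9 gained and 2 lost peaks. It had a start peak with Klf4 (−log10 q 10.9) and none with the empty vector. Over the 66 genes with a listed start, a start peak in the Klf4 list only was found at 4, namely Irf8, Irf4 (19.0), Irf5 (14.9) and Oas3 (9.33). Of all genes with a listed start, 6.51% had a start peak in that list only. Ddx58, the RNA sensor RIG-I, had a start peak with the empty vector only (10.3), as 0.663% of all genes did. These genes other than Irf8 were named after their values were seen. Ifitm3, a membrane protein that restricts virus entry, went from 1499 to 4320 bp (1.27), and Ikbke, a kinase that acts on IRF3 and IRF7, from 4462 to 9660 bp (1.03). Neither had a start peak in either list.

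**Figure D5:**
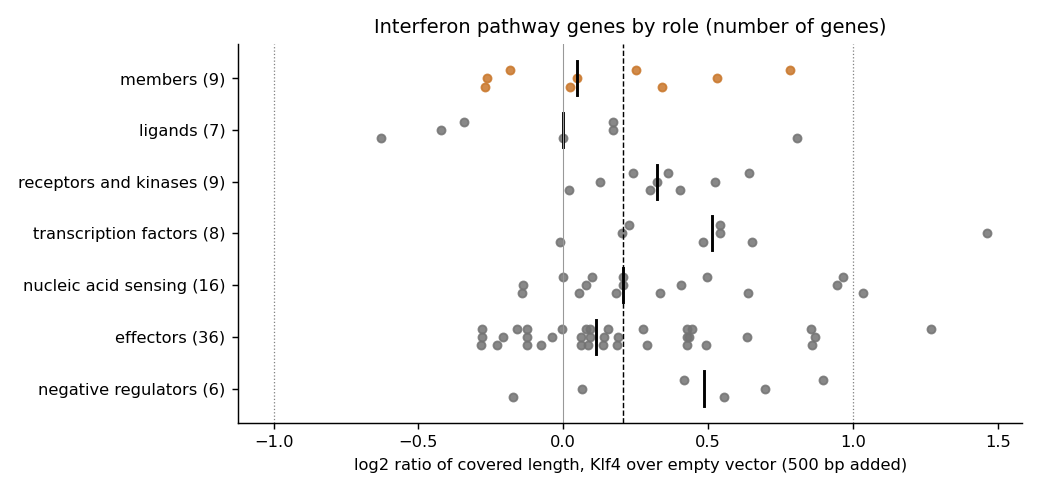
Log2 ratio of covered length for the members and for the 6 lists of other interferon genes, 1 point per gene, with list medians as bars, the median of all genes as a dashed line and 2-fold as dotted lines. Irf8 at 1.46, Ifitm3 at 1.27 and Ikbke at 1.03 lie past the upper dotted line, and no gene lies past the lower one.

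As a check of the cells, 7 of 8 beta cell markers had a start peak in both lists, Ins1, Ins2, Pdx1 and Mafa among them, and Slc2a2 had none over its start. Of 7 immune cell markers 3 had a start peak in the empty vector list and 4 had one in the Klf4 list, while Ptprc, Itgam and Cd3e had none. Of 3 fibroblast markers 1 had one in both lists, and of 3 endothelial markers 2 and 3. Since 59.4% and 65.2% of all genes with a listed start had such a peak, the immune and endothelial counts do not tell cell types apart. The Klf4 list was the longer one, with 128538 peaks on the main chromosomes against 100099, which bears on every gained peak above.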

How the data were processed

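ATAC-seq of MIN6 cells was deposited as 2 broadPeak lists, 1 per plasmid, merged per their names, for groups of 4 libraries each. The submitters' processing notes name FastQC, Bowtie2, MACS2, DiffBind and build mm10, without versions. Whether libraries were merged before peak calling, and what read filters or transposase shift were applied, is not given in the sources used here. The authors deposited a fold enrichment over local background (a ratio), a −log10 p-value and a −log10 q-value (q up to 0.0963 and 0.0997) and a score that is 10 times −log10 q for each peak; the score and the p-value were not used. Broad calling averages these over the peak, and a deeper or cleaner list holds more weak peaks.

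From these lists, peaks on chromosomes 1 to 19, X and Y were kept (165 and 188 scaffold peaks left out). Genes, starts and promoters came from RefSeq tables of GRCm38.p6, the assembly behind mm10. These tables give no exons, and 17492 protein-coding genes have a listed start. Windows ran from 25 kb before each gene to 25 kb after it, peaks touching them were counted, and 500 bp were added before log2. Matches needed at least 1 bp. All members had peaks in both lists, as did 85.2% of all genes, and no filter on low values was used. Intervals are 95% Wilson intervals. By rule, the named genes are the members and other interferon genes past 2-fold. The named peaks are unmatched ones with −log10 q of at least 5 and the strongest of each window, with start peaks added. Outside this rule, coordinates were also given for an upstream pair at Irf1 and the lost peak at Isg15. The same holds for the empty vector counterpart of the strongest Klf4 peak at Ifit1. Members and lists were chosen with earlier results of these data known. Counting and matching were tested on simulated data. Alternatives were thresholds of 5 and 20, windows of 10 and 50 kb, peaks of at least 500 bp, overlaps of 50% of 1 or both peaks, 100 bp added, and peaks within 1 kb of a start. Python 3.11.15, numpy 2.4.6, pandas 2.3.3 and scipy 1.17.1 were used.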

Additional observations from a re-analysis of the deposited data

How the results depend on the processing

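No paired analysis was possible because each plasmid has 1 merged list and no value per library; leaving out each replicate in turn was not run for the same reason. Under stricter thresholds a peak still counted as matched when any deposited peak of the other list overlapped it. A log2 ratio is said to move at a shift of 0.25, a count at 1.5 times and a matched share outside its interval. Of 132 values under alternatives 76 stayed, 50 moved and 6 changed sign.

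At a −log10 q of at least 5 the windows held 45 peaks of each list, 6 gained and 0 lost, with 100% of empty vector and 86.7% of Klf4 peaks matched, and the ratios of Stat2 (−0.017), Ifit3 (0.054) and Oasl2 (−0.22) changed sign. At 20 there were 23 empty vector and 21 Klf4 peaks, 1 gained and 0 lost, with 100% and 95.2% matched, and Irf1 changed sign (−0.14). Windows of 10 kb held 30 and 32 peaks, 6 gained and 3 lost, with a member median of 0.30 against 0.13 over all genes, and Stat2 changed sign (−0.11). Windows of 50 kb held 99 and 118 peaks, 35 gained and 13 lost. Peaks of at least 500 bp numbered 43 (empty vector) and 39 (Klf4), 5 gained and 1 lost, with 97.7% and 87.2% matched, and Stat2 changed sign (−0.20). Requiring 50% of the peak to be covered gave 14 lost peaks. Requiring 50% of both peaks gave 26 gained and 19 lost, with 69.4% and 61.8% matched. Over all genes, those with a gained peak made up 56.2% at a threshold of 5 and 10.7% at 20, and those with a lost peak 15.9% and 0.247%. Counts that move with a threshold or window follow from how many peaks it keeps, and the cause of the sign changes was not tested. The number of members with a start peak in both lists was 8 within 1 kb and at a threshold of 5. Neither alternative could lower it, since the weakest start peak of a member had a −log10 q of 8.51. A threshold of 20 was not run for it, and the start peaks of Ifit1, Ifit3 and Oasl2 lie under 20 in both lists. The member median lay between 0.03 and 0.30 and stayed positive. Depth per library is unknown, so a peak missing from a list may be a weak region under the threshold.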
